A study of Mus musculus with 6 samples.

Results

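Osteoclast formation is directed in large part by cells of the osteoblast and osteocyte lineage, and 7 genes of that signalling were followed in MLO-Y4 cells exposed to low-intensity pulsed ultrasound (LIPUS). They are Tnfsf11 (RANKL), Tnfrsf11a (RANK), Tnfrsf11b (osteoprotegerin, OPG), Csf1, Il34, Sema3a and Pth1r, taken by symbol from the 53797 genes of the deposited comparison, of which 16476 had a value above 0 in at least 1 group. MLO-Y4 is an established mouse line with features of osteocytes, and both groups were this line, grown in α-MEM with 10% fetal bovine serum. In the LIPUS group, 3 cultures received pulsed ultrasound at 1.5 MHz and 30 mW/cm2 for 20 min. The 3 Control cultures were untreated and shared a plate with LIPUS cultures, in wells above transducers that were unplugged. The study describes the RNA samples as coming from independent repeats of the experiment. Its statistics section, however, excepts the RNA sequencing from its statement that experiments were repeated independently. RNA was taken 30 min after the stimulation, so the values describe an early time only.

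The expression table gave, for each gene, 1 FPKM per group (fragment counts scaled to exon length and to the total of mapped reads), pooled over the libraries of that group by the authors. No value of a single culture was analysed here, so no SD stands beside any FPKM, no test was run, and whether a difference exceeds the spread between cultures cannot be told from these values. The reads behind each value cannot be recovered from such a table, and the methods give only a nominal number of reads for every sample. The study describes a Control culture that stood apart from the other Control cultures. It is part of every pooled Control value and could not be left out here. As a possible reason, the study names leakage of ultrasound into Control cells on the shared plate, which was not tested here. FPKM is scaled to transcript length, so levels can be compared between genes. A ratio is LIPUS over Control on the log2 scale with no pseudocount, and a gene is described as past the fold when it was at least 1.5-fold higher or lower and reached an FPKM of 1 in either group. In bulk RNA, fewer cells expressing a gene and less RNA per cell cannot be told apart.

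RANKL is a membrane-bound or shed ligand of the TNF family that drives osteoclast precursors to differentiate through its receptor RANK, and OPG is a secreted decoy receptor that binds RANKL and keeps it from RANK. M-CSF, the product of Csf1, and interleukin-34 share the receptor Csf1r and keep precursors alive and proliferating. Osteocytes are known as a main source of RANKL in remodelling bone, and parathyroid hormone, acting through the receptor encoded by Pth1r, raises RANKL and lowers OPG in cells of this lineage. Semaphorin 3A, the product of Sema3a, restrains osteoclast formation and favours osteoblasts through neuropilin and plexin receptors.

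The cells were first checked against marker genes. Of 7 osteocyte markers, Pdpn (podoplanin, of the dendritic processes) had an FPKM of 295 in Control and 402 in LIPUS cells, and Gja1 (connexin 43) 176 and 170. Dmp1, a matrix protein of osteocytes, was at 3.04 and 7.65, while Sost, Mepe and Fgf23, genes of mature osteocytes, were listed at 0 in both groups. Of 18 osteoclast and macrophage markers, 10 were listed at 0 in both groups, among them Ptprc, Adgre1, Spi1, Tyrobp, Fcer1g and Calcr, and Csf1r was at 0.236 and 0.233. The summed FPKM of these markers was 64.9 in Control and 75.6 in LIPUS cells, most of it from Ctsk (cathepsin K) at 42.2 and 53.6. Of 5 T cell markers, 4 were listed at 0 in both groups, and Lck was at 2.81 and 1.79. Besides Ctsk and Lck, the markers of these cells above an FPKM of 1 in either group were Trem2 (7.60 and 11.3), Itgb3 (9.41 and 6.94), Cd68 (5.32 and 1.72) and Acp5 (0.204 and 1.10). Their part in the values below was not tested.

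The levels of the 7 genes spanned a wide range. Csf1 stood far above the others, Sema3a and Tnfrsf11b were at a middle level, Tnfsf11 and Pth1r were low, Il34 was below an FPKM of 1, and Tnfrsf11a was listed at 0. This order was the same in Control and LIPUS cells. Of the 5 genes at an FPKM of at least 1, Tnfsf11 alone was past the fold, and it was higher with LIPUS. With a minimum FPKM of 10, or with a 2-fold limit, 0 coupling genes were past it. Over all 11777 genes with a ratio at this minimum, 8.41% were past the fold as higher, 8.91% as lower and 17.3% either way, beside 1 of the 5 coupling genes. The share was larger at low levels. Among 1649 genes with a ratio and a mean FPKM within 1.5 times that of Tnfsf11, it was 28.6% either way. Cuffdiff, the authors' comparison program, marked 3 of the 7 genes as tested (Csf1, Sema3a and Tnfrsf11b) and 4 as not tested (Tnfsf11, Tnfrsf11a, Il34 and Pth1r). No gene it tested was below an FPKM of 6.70 in the group where the gene was higher, a level that these 4 genes did not reach.

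**Figure D1:**
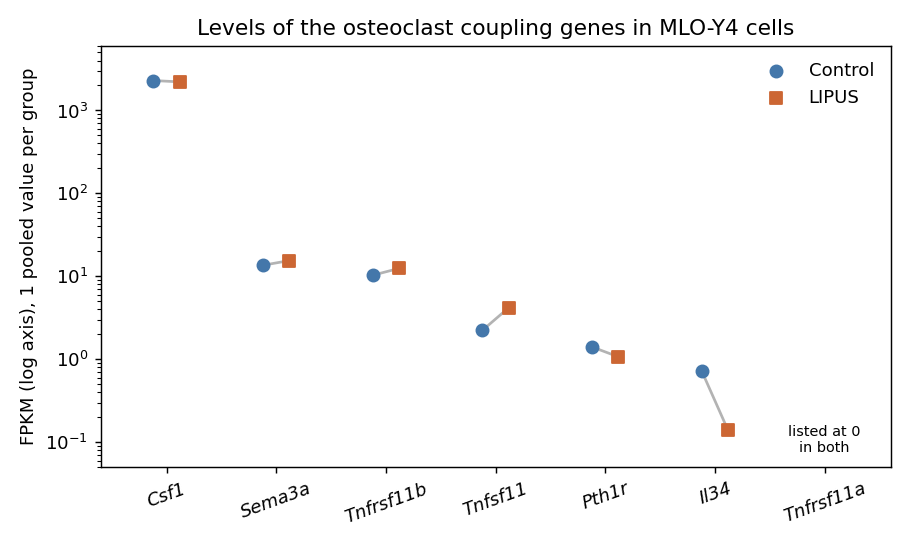
FPKM (log axis) of the 7 coupling genes in Control (circles) and LIPUS (squares) cells, with 1 pooled value per group and therefore no error bars. Csf1 lies far above the other genes at 2296 and 2212, Tnfsf11 goes from 2.23 to 4.19, Il34 from 0.716 to 0.138, and Tnfrsf11a is listed at 0.

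The promoters of Tnfsf11, Csf1 and Tnfrsf11a are shown because these genes are, in this order, the one past the fold, the most abundant and the one listed at 0. Each line gives the 250 bases before the RefSeq start (GRCm38.p6), written 5′ to 3′ on the strand of the gene. Capitals mark matches, on either strand, to TATAA (the core of a TATA box) or to GGGCGG (a GC box, the binding motif of Sp1).

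Tnfsf11 promoter, chr14:78308044-78308293, minus strand: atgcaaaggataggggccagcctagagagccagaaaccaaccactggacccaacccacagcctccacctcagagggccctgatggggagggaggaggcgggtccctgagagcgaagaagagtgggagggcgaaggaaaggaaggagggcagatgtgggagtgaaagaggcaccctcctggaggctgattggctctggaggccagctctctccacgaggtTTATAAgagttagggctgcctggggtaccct

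Csf1 promoter, chr3:107760470-107760719, minus strand: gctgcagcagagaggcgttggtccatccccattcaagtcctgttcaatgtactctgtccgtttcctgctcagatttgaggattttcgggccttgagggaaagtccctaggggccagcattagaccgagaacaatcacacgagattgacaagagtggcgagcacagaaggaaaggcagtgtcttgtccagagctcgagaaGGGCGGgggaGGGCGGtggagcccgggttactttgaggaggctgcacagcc

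Tnfrsf11a promoter, chr1:105780473-105780722, plus strand: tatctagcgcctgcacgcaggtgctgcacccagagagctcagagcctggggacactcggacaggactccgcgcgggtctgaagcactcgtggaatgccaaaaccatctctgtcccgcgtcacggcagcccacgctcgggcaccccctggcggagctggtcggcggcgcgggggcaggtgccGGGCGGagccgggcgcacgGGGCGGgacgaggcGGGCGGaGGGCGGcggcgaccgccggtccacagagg

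The Tnfsf11 window held a single TATA stretch, TTATAA, which is its own reverse complement and so reads as TATAA on both strands. It begins 31 bases before the start. The window had no GC box. The Csf1 window held 2 GC boxes and the Tnfrsf11a window 4, and neither held TATAA. Among all 32851 promoter windows of this length, 22.8% contained TATAA and 32.7% GGGCGG. The Tnfrsf11a window had 31 CpG dinucleotides and 73.6% G and C, against 10 and 56.4% for Csf1, 4 and 60.4% for Tnfsf11, and a median of 6 CpG over all windows. None of the windows of these 3 genes, of Sema3a or of Pth1r matched TGANTCA (AP-1), GCGNGGGCG (Egr) or TGACGTCA (the cyclic AMP response element), which were found in 6.75%, 4.70% and 1.55% of all windows. This says only that these letters are not in the windows. The Sema3a window, chr5:13396534-13396783, lies before a RefSeq start inside the GENCODE span of that gene, and Pth1r has windows before 3 starts.

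Tnfsf11, the gene of RANKL, was higher after LIPUS. It lies on chromosome 14 of GRCm38 from 78277445 to 78308043 on the minus strand and has 2236 exonic bases in GENCODE M21. Its FPKM was 2.23 in Control and 4.19 in LIPUS cells, which is 1.88-fold higher (log2 ratio 0.91). Ranked by FPKM, 10308 genes lay above it in Control cells and 9020 in LIPUS cells. Of the 16476 genes above 0 in at least 1 group, 37.4% lay below it in Control and 45.2% in LIPUS cells. At such a level large ratios were common. Of the 1656 other genes whose mean FPKM was within 1.5 times that of Tnfsf11, 1649 had a ratio. Of these, 13.9% had an absolute log2 ratio at least as large, and the central 95% of their log2 ratios ran from -1.40 to 1.34. The value of Tnfsf11 lies inside that range.

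Tnfrsf11a, which encodes the receptor RANK, was listed at an FPKM of 0 in Control and in LIPUS cells. The gene spans chromosome 1 from 105780718 to 105847981 on the plus strand. RANK marks osteoclast precursors and osteoclasts, and Tnfrsf11a is itself 1 of the 10 osteoclast and macrophage markers listed at 0 in both groups. A further receptor of RANKL, Lgr4, was detected in MLO-Y4 cells, with an FPKM of 11.2 in Control and 7.48 in LIPUS cells (log2 ratio -0.59). That ratio counts as past the fold but sits right at its limit, and it was within the fold with a pseudocount of 0.1.

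Tnfrsf11b, the gene of OPG, differed little between the groups. It lies on chromosome 15 from 54250619 to 54278484 on the minus strand. Its FPKM was 10.3 in Control and 12.5 in LIPUS cells, a log2 ratio of 0.28. Of 2592 genes of like level with a ratio, 41.3% had an absolute log2 ratio at least as large. OPG also binds the death ligand TRAIL, whose gene Tnfsf10 was at an FPKM of 0.326 in Control and 0.0451 in LIPUS cells, below the minimum, while the TRAIL receptor gene Tnfrsf10b was at 18.7 and 22.4.

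The RANKL to OPG ratio, a usual summary of this axis, is here the FPKM of Tnfsf11 divided by that of Tnfrsf11b. It was 0.217 in Control and 0.336 in LIPUS cells, 1.55-fold higher with LIPUS. With a pseudocount of 1 it was 1.35-fold higher, under the 1.5-fold limit. The ratio rests on the low Tnfsf11 values, and how far it varies between cultures is not known. OPG transcripts outnumbered those of RANKL in both groups, 4.61 to 1 in Control and 2.98 to 1 in LIPUS cells. Since both genes were higher with LIPUS, the ratio differed less than Tnfsf11 itself.

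Csf1, the gene of M-CSF, was one of the most abundant transcripts of these cells and was at nearly the same level in both groups. It lies on chromosome 3 from 107741048 to 107760469 on the minus strand, with 5281 exonic bases. Its FPKM was 2296 in Control and 2212 in LIPUS cells (log2 ratio -0.05). Of all genes, 19 had a higher FPKM in Control cells and 21 in LIPUS cells. Only 35 other genes had a like level, and 27 of them had an absolute log2 ratio at least as large as that of Csf1. The Csf1 level was 1028 times that of Tnfsf11 in Control and 528 times in LIPUS cells. The transcripts of the shed and the membrane-bound M-CSF are summed in this value and were not told apart.

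Il34 encodes the second ligand of Csf1r and was far below Csf1 in both groups. The gene lies on chromosome 8 from 110741829 to 110805924 on the minus strand, with 1959 exonic bases. Its FPKM was 0.716 in Control and 0.138 in LIPUS cells. It was thus 5.18-fold higher in Control cells (log2 ratio -2.37), but both values lie below the minimum of 1 FPKM, so Il34 was not counted as past the fold. Of 1283 other genes of like level, 375 were listed at 0 in 1 of the groups. Among the other 908, 8.81% had an absolute log2 ratio at least as large, and the central 95% of their log2 ratios ran from -2.98 to 2.76. The ratio of Il34 is the largest in size among the 6 coupling genes above 0, and it belongs to the gene at the lowest level. On the opposite strand, the antisense genes Gm15894 and Gm15895 share 22 and 75 exonic bases with Il34, and both were listed at 0.

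Sema3a, which restrains osteoclasts, was at an FPKM of 13.6 in Control and 15.5 in LIPUS cells, a log2 ratio of 0.19. It spans chromosome 5 from 13125414 to 13602565 on the plus strand. Its level was close to that of Tnfrsf11b, the other inhibitor of osteoclast formation among these genes. Of 2653 genes of like level with a ratio, 51.5% had an absolute log2 ratio at least as large, so about as many genes differed more as differed less.

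Pth1r, the receptor of parathyroid hormone and of its related peptide, was at an FPKM of 1.41 in Control and 1.07 in LIPUS cells, a log2 ratio of -0.40. It lies on chromosome 9 from 110722085 to 110747145 on the minus strand. Of 1137 genes of like level with a ratio, 61.8% had an absolute log2 ratio at least as large. Pth1r shares 95 exonic bases with Myl3, a myosin light chain gene on the opposite strand that was at 0.587 in Control cells and listed at 0 in LIPUS cells. The libraries kept the strand, but whether the FPKM used it is not given in the sources used here, so reads of this overlap could belong to either gene.

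**Figure D2:**
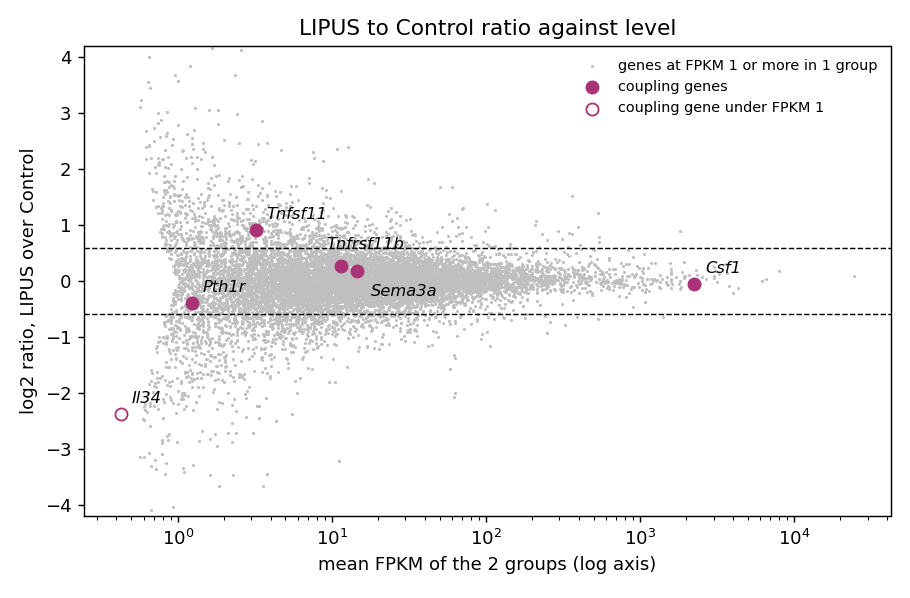
Log2 ratio of LIPUS over Control against the mean FPKM of both groups (log axis). Grey points are the 11777 genes above 0 in both groups that reached an FPKM of 1 in either (11 lie outside the plotted range), purple points are the coupling genes, the open point is Il34, and dashed lines mark 1.5-fold. The grey cloud widens towards low FPKM, where Tnfsf11 (0.91), Pth1r (-0.40) and Il34 (-2.37) lie, and is narrow around Csf1 (-0.05).

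The receptors and ligands that pair with each factor were set beside it at the transcript level. Csf1r (0.236 in Control and 0.233 in LIPUS cells) was near 0 and Ptprz1, another receptor of interleukin-34, was listed at 0, while the proteoglycan gene Sdc1 (syndecan-1), whose product also binds interleukin-34, was at 604 and 589. The parathyroid hormone genes Pth and Pthlh were listed at 0. For the semaphorin axis, Nrp1, the binding receptor of semaphorin 3A, was at 20.7 and 20.9, and its signalling partner Plxna1 at 50.2 and 43.8. The most abundant gene of the semaphorin list was Nrp2, at 65.9 and 57.0. Sema3a, Nrp1 and Plxna1 were thus all above an FPKM of 10 in both groups, whereas for Csf1 the receptor gene was below 1 and for Pth1r both ligand genes were listed at 0.

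**Figure D3:**
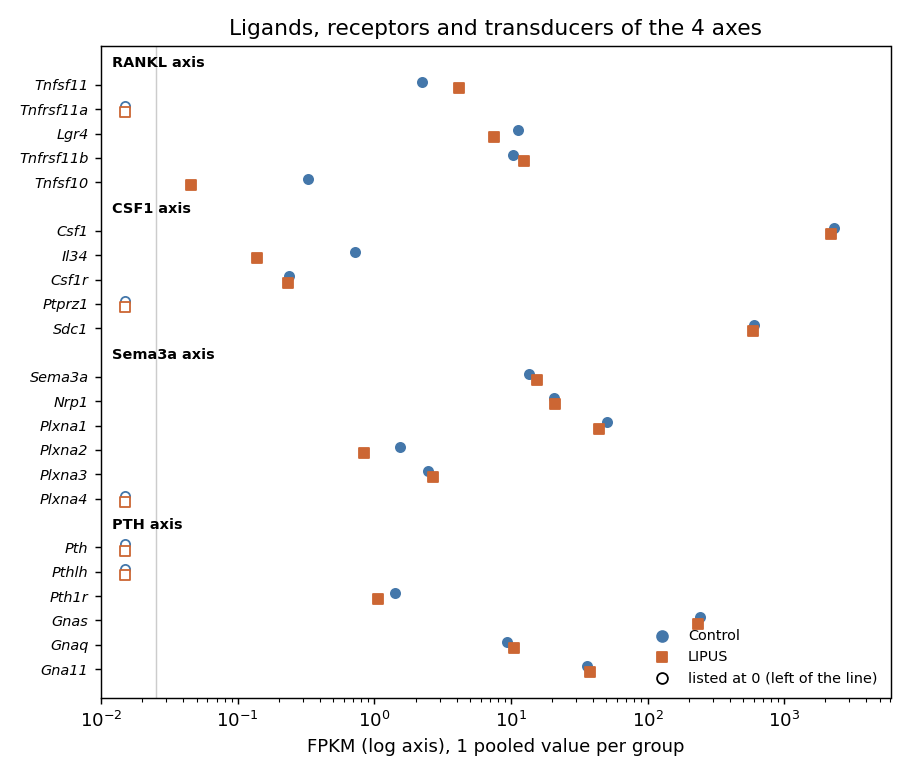
FPKM (log axis) of ligands, receptors and transducers of the RANKL, CSF1, Sema3a and PTH axes in Control (circles) and LIPUS (squares) cells. Open symbols left of the grey line stand for genes listed at 0 in a group, which has no place on a log axis. Csf1 and its receptor gene Csf1r lie far apart, with Csf1r at 0.236 and 0.233.

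Lists of further genes of the same pathways hold 115 genes, of which 84 had a ratio with an FPKM of at least 1. Of these, 6 were past the fold as higher, 9 as lower and 69 were within it, which is near the 8.41% higher and 8.91% lower over all genes. Their median log2 ratio was 0.06, beside -0.0014 over all genes. With a pseudocount of 1, or with a minimum FPKM of 10, the counts were 3 higher and 7 lower. At a 2-fold limit they were 1 higher and 2 lower.

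Among 19 genes of RANK signalling, all measured at an FPKM of at least 1, 0 were past the fold as higher and 2 as lower, a share near the 8.91% lower over all genes. At a minimum FPKM of 10, or at a 2-fold limit, 1 was lower. The median log2 ratio was -0.0014, the value of Nfkb1, which is also the middle gene of all 11777. Traf5, an adaptor of TNF receptors, was at 5.59 in Control and 2.74 in LIPUS cells. Nfatc1, the master transcription factor of osteoclasts and also the most abundant gene of this list, was at 126 and 80.6 (log2 ratio -0.64). Traf6, the main adaptor of RANK, was at 5.05 and 3.66, and Nfkb1 at 28.6 in both groups.

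The list of 24 genes that induce RANKL in cells of the osteoblast lineage, or carry such signals, had 20 with a ratio. Of these, 5 were higher (beside 8.41% of all genes), 2 lower (beside 8.91%) and 13 within the fold, and the median log2 ratio was 0.14. At a 2-fold limit 1 was higher and 0 lower. With a pseudocount of 1, or with a minimum FPKM of 10, 3 were higher and 2 lower. Ptgs2 (cyclooxygenase-2, for prostaglandin synthesis) was at 205 in Control and 381 in LIPUS cells. Ptger4, a receptor of prostaglandin E2, was at 8.77 and 13.5 FPKM, and Il6 at 8.98 and 16.5. Tnf was at 3.12 and 4.93, and Lifr, the receptor of leukaemia inhibitory factor, at 0.498 and 1.81, both at low levels. The 2 lower genes encode transcription factors. Vdr, the vitamin D receptor that acts on the Tnfsf11 gene, was at 35.3 and 21.1 (log2 ratio -0.74), and Runx2, the master regulator of osteoblasts, at 24.4 and 14.8 (-0.72). Il11 was the most abundant gene of the list, at 457 and 557. Inducers on either side of the fold thus stood beside the higher Tnfsf11 value, and their part in it was not tested.

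In the 12 genes of the PTH axis, 9 had a ratio and 0 were past the fold in either direction (17.3% of all genes), with a median log2 ratio of 0.07. Gnas, the stimulatory G protein that couples Pth1r to cyclic AMP, was the most abundant, at 243 in Control and 234 in LIPUS cells. Of the 15 genes of the semaphorin axis, 11 had a ratio, 0 were past the fold as higher and 2 as lower (8.91% lower over all genes). These were Plxna2 (1.55 and 0.834) and Plxnd1, the plexin that binds semaphorin 3E (23.4 and 14.6). The count of lower genes was 1 at a minimum FPKM of 10 or a pseudocount of 1, and 0 at a 2-fold limit. Of the 8 genes of the CSF1 receptor axis, 4 were listed at 0 in both groups and 2 had a ratio at an FPKM of at least 1. Of these 2, Csf2rb, the shared chain of the GM-CSF receptor, was past the fold as higher (8.41% of all genes), at 1.95 and 3.13. It was not counted with a pseudocount of 1, at a minimum FPKM of 10 or at a 2-fold limit. Of 4 proteases that can shed RANKL or M-CSF from the cell surface, Mmp7 was listed at 0 and the other 3 were within the fold, with Mmp14 at 179.7 and 188, Adam10 at 39.6 and 32.4 and Adam17 at 13.3 and 12.5. Of 9 genes that regulate OPG, 8 had a ratio and 0 were past the fold (17.3% of all genes, as for the proteases), among them Ctnnb1 (β-catenin), the most abundant, at 120.02 and 130.1 FPKM.

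**Figure D4:**
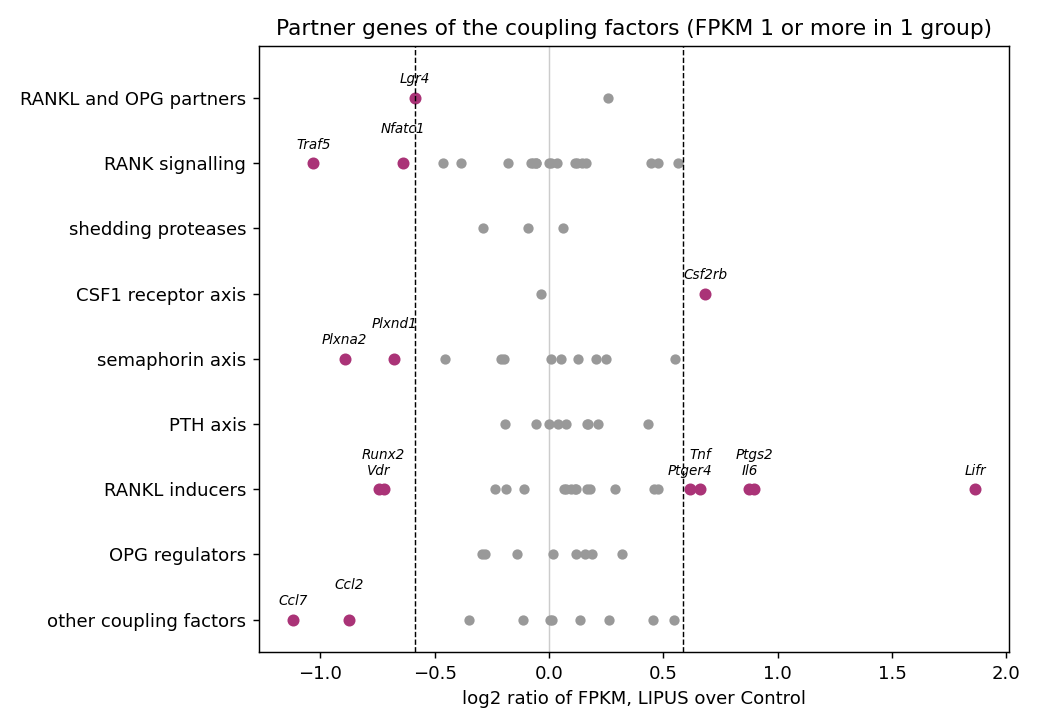
Log2 ratio of LIPUS over Control for the pathway genes that reached an FPKM of 1 in either group, 1 row per list and 1 point per gene, with dashed lines at 1.5-fold and purple points past it. The RANKL inducers have 5 genes beyond the right line and 2 beyond the left one, while the PTH axis, the shedding proteases and the OPG regulators have none.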

How the data were processed

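Stranded mRNA libraries of 3 LIPUS and 3 Control cultures of MLO-Y4 cells were read as pairs of 100 bases. Per the labels' processing notes and the methods, trimming was done in Trimmomatic 0.36 and alignment to GRCm38 in TopHat2 2.1.0 over Bowtie2 2.2.6.0, and the authors derived FPKM from Ensembl transcripts in Cufflinks and Cuffdiff. The notes name Cufflinks 2.1.1 and the methods another version. The authors deposited 1 FPKM per gene and group, pooled over the libraries. The fold change, test statistic, p-value and q-value columns are the authors' own comparison and were not used. Whether LIPUS and Control cultures of the same number belong together is not stated, and such a pairing could not be used, as the values are pooled.

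From the FPKM, log2 ratios (pseudocount 0), counts of genes past 1.5-fold that reached an FPKM of 1 in either group, and the ratios of genes with a mean FPKM within 1.5 times that of a member were computed in Python 3.11.15 with numpy 2.4.6, pandas 2.3.3 and matplotlib 3.10.9. The code that counts genes past the fold was tested on simulated data with known folds, which says nothing about the error of the measured values. Positions and exonic lengths come from GENCODE M21 and promoters from RefSeq, both on GRCm38, and promoters of 5 of the 7 genes were matched. The named genes are the 7 members and, in each list, the genes past the fold, the most abundant one and those needed to check the cell type. Other genes were named after their values were seen. These are partner genes (Traf6, Nfkb1, Nrp1, Plxna1, Csf1r, Ptprz1, Pth, Pthlh, Tnfsf10, Adam10 and Adam17), genes listed at 0 in either group (Mmp7, Bglap, Wnt5a, Wnt16, Sfrp1, Cxcl12, Slit3, Bmp6 and Pdgfb) and genes that overlap a member (Myl3, Gm15894 and Gm15895). The members and lists were chosen with earlier results of these data known. Alternatives were pseudocounts of 0.1 and 1, no minimum FPKM or one of 10, a 2-fold limit, centring on the median of genes at an FPKM of at least 10 and a window of 2 times.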

Additional observations from a re-analysis of the deposited data

How the results depend on the processing

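The log2 ratios of the coupling genes were repeated 24 times under the alternatives. Of these repeats, 21 stayed on the same side of the fold and within 1.5-fold of the reported value. The 2-fold limit and the centring barely change a ratio, so much of this count was fixed in advance. The alternatives could not turn a direction. A pseudocount keeps the sign, the 2-fold limit leaves the ratio as it is, and the centring shift was smaller than any of these ratios. Among the coupling genes, Tnfsf11 had a log2 ratio of 0.68 with a pseudocount of 1, and its 0.91 lay under a 2-fold limit. Il34 moved to -1.78 with a pseudocount of 0.1 and -0.59 with a pseudocount of 1. The RANKL to OPG ratio was 1.35-fold higher with LIPUS at a pseudocount of 1. Over all genes, a minimum FPKM of 10 left 7.915% past the fold (4.06% higher, 3.85% lower) and a 2-fold limit 6.91% (3.40% and 3.51%). Of the pathway genes, 3 were higher with a pseudocount of 1, 3 with a minimum FPKM of 10 and 1 at a 2-fold limit, where 2 were lower. In counts per list and among the coupling genes, chosen after seeing the data, 2 coupling genes were past the fold with no minimum FPKM, 0 with a minimum of 10 and 0 at a 2-fold limit. RANKL inducers that were higher numbered 3 with a pseudocount of 1, 3 with a minimum of 10 and 1 at 2-fold. Centring used the median of genes at an FPKM of at least 10 in either group, which was 0.0099, and shifted all log2 ratios by that amount. No paired analysis was possible because the table holds values pooled over the cultures, and leaving out a culture was not possible for the same reason. With no reads and no error given for any value, ratios of genes near or below an FPKM of 1 are the least certain.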

Other observations

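Of 21 other factors by which bone cells and osteoclasts are known to signal to each other, 10 had a ratio with an FPKM of at least 1, 0 were past the 1.5-fold limit as higher and 2 as lower, beside 8.41% and 8.91% of all genes. These were the monocyte chemokines Ccl2, at an FPKM of 23.7 in Control and 12.9 in LIPUS cells (log2 ratio -0.87), and Ccl7, at 14.1 and 6.48 (-1.12). The count of lower factors was 1 at a 2-fold limit, where Ccl2 was not counted, and 5 with no minimum FPKM. The most abundant gene of this list was Hmgb1, at 602 and 603. Wnt5a, Wnt16, Sfrp1, Cxcl12, Slit3, Bmp6 and Pdgfb were listed at 0 in both groups.

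Of 9 osteoblast markers, 7 had a ratio, 4 were past the fold as lower and 0 as higher, beside 8.91% and 8.41% of all genes. The count of lower markers was 2 at a minimum FPKM of 10, 1 at a 2-fold limit and 3 with a pseudocount of 1. With a pseudocount of 0.1 or 1, 1 marker counted as higher. Bglap (osteocalcin) had no ratio without a pseudocount, being listed at 0 in Control and at 1.58 in LIPUS cells. Besides Runx2 the lower markers were Sp7 (osterix), at 5.86 in Control and 3.75 in LIPUS cells, Alpl (alkaline phosphatase), at 293 and 189.65, and Postn (periostin), at 2.94 and 1.11. The most abundant osteoblast marker, Spp1 (osteopontin), was at 4514 and 4158. Among the osteoclast and macrophage markers, Acp5 was at 0.204 and 1.10 and Cd68 at 5.32 and 1.72, which differ in opposite directions.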
